A study of Homo sapiens with 6 samples.

Results

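The genes described here encode proteins of the extracellular matrix and the enzymes that process collagen. They are a list of 53 genes chosen by symbol, and 47 of them have values among the 20026 genes of the deposited table. *EFEMP1*, *COL1A2*, *DCN*, *ADAMTS1*, *LUM* and *COL6A3* are not analysed here. RNA-seq was done on 6 libraries of HepG2 cells, a line grown from a human liver tumour. The Scr libraries (n = 2, genotype labelled WT) come from the scramble control, which received the Cas9 vector without a guide for the miRNA. The miR-23a KO (n = 2) and miR-27a KO (n = 2) libraries come from cells edited by Cas9 with guides flanking the mature miRNA, grown out from sorted single cells. All groups share the HepG2 background and the Cas9 vector, and no label gives a further treatment. In the study, miR-23a KO cells also had less miR-27a-3p and miR-24-3p, and miR-27a KO cells had less miR-24, so neither group stands for the loss of 1 miRNA alone. The labels do not say which clone each replicate is or whether replicates are separate cultures, so every p given here measures only the spread between these libraries. The paper also speaks of selected colonies for the scramble cells. A difference between groups that comes from the edit and one that comes from the clone cannot be told apart here. The columns are named FPKM, but the values were read as estimated counts, because from 34.5% to 40.8% of those above 0 in a library were exact whole numbers as deposited, with no tolerance. That reading rests on the values alone. Their sums were 14891283 and 14405247 in Scr, against 16515266 and 15930762 with miR-23a KO and 15850575 and 15947316 with miR-27a KO.

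The extracellular matrix is the mesh of secreted proteins that surrounds cells. Collagen chains are hydroxylated and glycosylated in the endoplasmic reticulum, trimmed outside the cell by proteinases, some of them helped by enhancer proteins, and cross-linked by lysyl oxidases. Nidogen and perlecan join collagen IV and laminin into the basement membrane, on which epithelial cells sit. Metalloproteinases cut the finished matrix and TIMP proteins inhibit them. In the liver most fibrillar collagen comes from stellate cells, while hepatocytes and liver tumour cells secrete fibronectin and several other matrix proteins. A miRNA binds its targets mainly through its seed, a stretch near its 5' end, and the loss of a miRNA is usually read through genes with a matching site in the 3' untranslated region. The paper describes miRNAs as acting against their target genes, through cleavage of the mRNA or less translation.

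The mature sequences of the miRNAs that name the groups are shown first, because their seeds define the sites searched for in the matrix genes. They were copied from RefSeq (GRCh38.p14), where they lie on the minus strand at chr19:13836595-13836615 for miR-23a-3p and chr19:13836447-13836467 for miR-27a-3p. Capitals mark the seed, bases 2 to 8. The seeds differ, so no site matches both.
miR-23a-3p: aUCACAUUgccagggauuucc
miR-27a-3p: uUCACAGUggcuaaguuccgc

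A site was a match to the 7 letters that pair with the seed, AATGTGA for miR-23a-3p and ACTGTGA for miR-27a-3p, in the longest annotated 3' untranslated region of each gene in GENCODE 29 (GRCh38). The sites of 3 genes that stand out in the results are printed with the site in capitals. *VCAN* has 2 sites for miR-23a-3p (plus strand, chr5:83581586-83581592 and chr5:83582201-83582207). *COLGALT2* has 2 sites for miR-27a-3p (minus strand, chr1:183936423-183936429 and chr1:183936335-183936341). *ITIH5* has 1 site for each (minus strand, chr10:7560243-7560249 for miR-23a-3p and chr10:7559699-7559705 for miR-27a-3p).
VCAN, first miR-23a-3p site: gattaaatAATGTGAcggataga
VCAN, second miR-23a-3p site: tagtgtaaAATGTGAatgacttt
COLGALT2, first miR-27a-3p site: actgttctACTGTGAagaaagtt
COLGALT2, second miR-27a-3p site: tggtgaacACTGTGAgccgcaga
ITIH5, miR-23a-3p site: aaatcctgAATGTGAtggttctt
ITIH5, miR-27a-3p site: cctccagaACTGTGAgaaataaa

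HepG2 cells of the Scr group expressed a matrix programme led by fibronectin. Levels are given as CPM, counts scaled to the library size after TMM normalisation, and as CPM per kilobase of the longest transcript where genes are compared with each other. Per kilobase, *FN1* (gene 2335, fibronectin) was highest with a mean of 760.6 ± 210 CPM (SD, n = 2). *PLOD1* (gene 5351), a lysyl hydroxylase of collagen chains, followed at 317 ± 86.8 CPM per kilobase. Then came *SPP1* (gene 6696, osteopontin) at 209 ± 128, *TIMP1* (gene 7076), a metalloproteinase inhibitor, at 186 ± 28.1 and *FBLN1* (gene 2192, fibulin-1) at 159 ± 50.1 CPM per kilobase. From *PLOD1* to *FBLN1*, neighbours in this order lay within each other's spread, and *FN1* lay above it. *FN1* alone took 55.5% and 55.0% of all counts of the listed genes in the Scr libraries.

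Several listed collagens that build fibres or sheets were at or near 0 in these cells. *COL1A1* (gene 1277), *COL4A1* (gene 1282), *COL4A5* (gene 1287) and *COL12A1* (gene 1303) each had a Scr mean under 0.1 CPM, and so had *FBN2* and *TNC*. *COL4A1* had 0 counts in both Scr libraries, against 0 and 1 with miR-23a KO and 0 and 1 with miR-27a KO. Its chromosomal neighbour and partner chain *COL4A2* (gene 1284) had 31 counts in each Scr library. The 9 genes too low to test in any comparison were these 6 and *NID2*, *COL5A1* and *COL6A2*, with at most 10 counts in any library. *COL6A2* had a ratio of Scr to miR-23a KO of 8.70, with a 95% exact counting interval of 1.17 to 386. Among the listed collagen genes *COL18A1* (gene 80781), whose product carries the endostatin domain, was the highest per kilobase, at 30.4 ± 9.80 CPM. Collagens outside the list were also expressed in Scr, as *COL9A3* at 128 ± 76.6 CPM and the fibrillar *COL27A1* at 60.9 ± 1.87 CPM.

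The labels give the cell line as HepG2 and the cell type as triple-negative liver cancer cells, a wording not used for HepG2, and the sample titles were followed. All 9 hepatocyte markers were above 1 CPM, with summed levels of 29940 and 37160 CPM in Scr, against 31570 and 32800 with miR-23a KO and 25770 and 25710 with miR-27a KO. Of 9 fibroblast and stellate cell markers, 5 have values, with summed levels of 217 and 183 CPM in Scr, against 200.1 and 134 with miR-23a KO and 153 and 151 with miR-27a KO. *ACTA2*, an actin that many cultured cells express, made up most of that sum. *PDGFRB* was also expressed, at 17.4 and 29.3 CPM in Scr, against 29.8 and 19.6 with miR-23a KO and 5.64 and 5.12 with miR-27a KO, while *PDGFRA* and *DES* stayed at or under 0.162 CPM in every library. The 4 endothelial markers with values summed to between 3.35 and 6.84 CPM, led by *PECAM1*. The 5 leukocyte markers were led by *CD68*, a lysosomal protein, with sums of 168 and 157 CPM in Scr, against 140 and 72.7 with miR-23a KO and 113 and 109 with miR-27a KO, while *PTPRC* stayed at or under 0.135 CPM. In bulk RNA, fewer cells of a kind and less RNA per cell cannot be told apart.

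**Figure D1:**
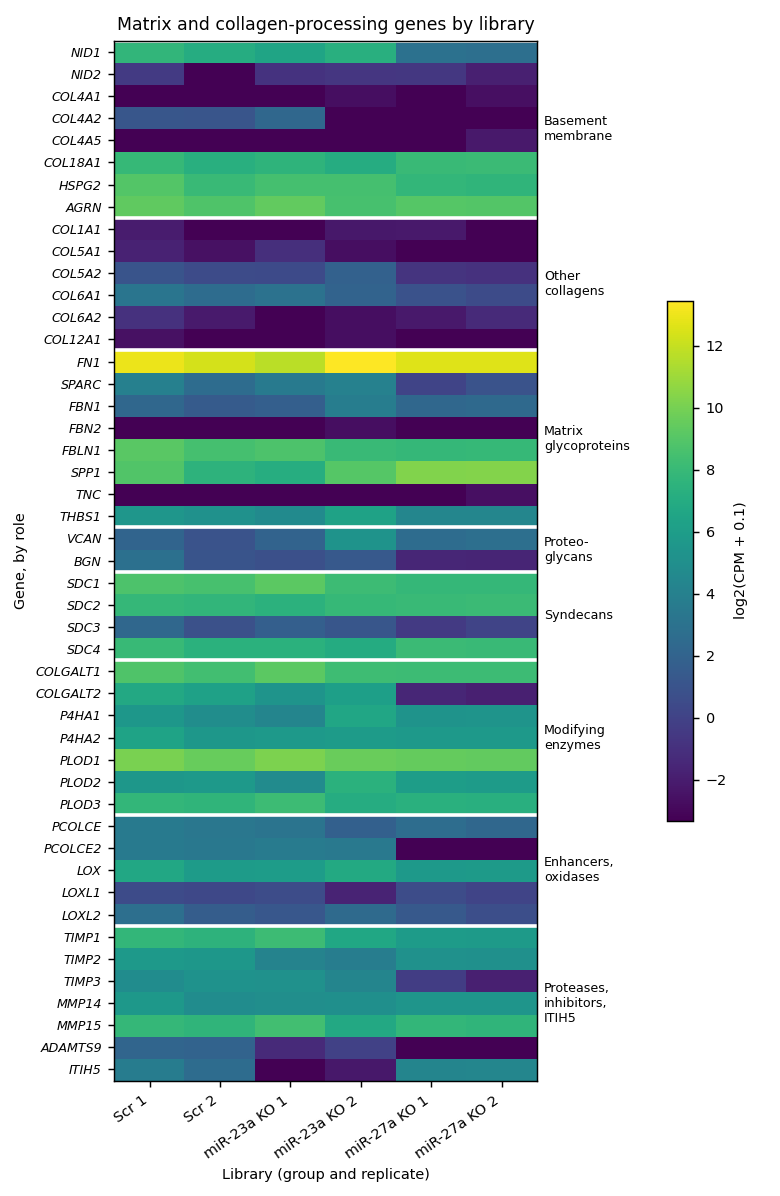
Level of each of the 47 genes (vertical axis, grouped by role) in each of the 6 libraries (horizontal axis), as log2 of CPM + 0.1. *FN1* is the brightest line, and *NID1*, *COLGALT2*, *PCOLCE2* and *TIMP3* are dark in both miR-27a KO libraries.

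The libraries of a group were not equally alike. Of the 38 listed genes tested, 7 (18.4%) lay more than 2-fold apart between the Scr libraries, all of them higher in Scr replicate 1, against 9.02% of 14172 genes. The listed genes took 1.41% of all counts in Scr replicate 1 and 1.02% in Scr replicate 2. In miR-27a KO, 1 of the 38 (2.63%) lay over 2-fold apart, against 3.66% of all genes, and the listed genes took 1.2% and 1.19% of counts. The median squared difference between a group's libraries, divided by what sampling of counts alone would give, was 1.81 in miR-27a KO, 10.1 in Scr and 89.4 in miR-23a KO over all genes, and 2.81, 90.0 and 237 over the listed genes. The labels do not say whether the miR-27a KO libraries, so near to sampling noise, are separate cultures, and each p for miR-27a KO depends on that. In miR-23a KO, 18 of the 38 (47.4%) did so, against 47.3% of all genes, 11 higher in replicate 2 and 7 higher in replicate 1. There the listed genes took 0.736% of counts in replicate 1 and 1.86% in replicate 2, and *FN1* alone took 36.0% and 70.6% of the listed genes' counts.

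The difference between the miR-23a KO libraries followed base composition. Genes of low GC content were higher in replicate 2: *PLOD2*, a lysyl hydroxylase with 37.6% GC, had a log2 ratio of replicate 2 to replicate 1 of 2.61. *VCAN*, with 42.9% GC, had 3.28. *MMP15*, a membrane metalloproteinase with 66.0% GC, had a log2 ratio of -1.55. Across the 38 genes, Spearman's rho between GC content and that log2 ratio (0.1 CPM added) was -0.753, and it was -0.668 across 13332 genes, which are not independent replicates. For transcript length rho was 0.351 across the listed genes and 0.464 across all. The part of base composition in the miR-23a KO results was not tested beyond the fits with a GC correction.

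**Figure D2:**
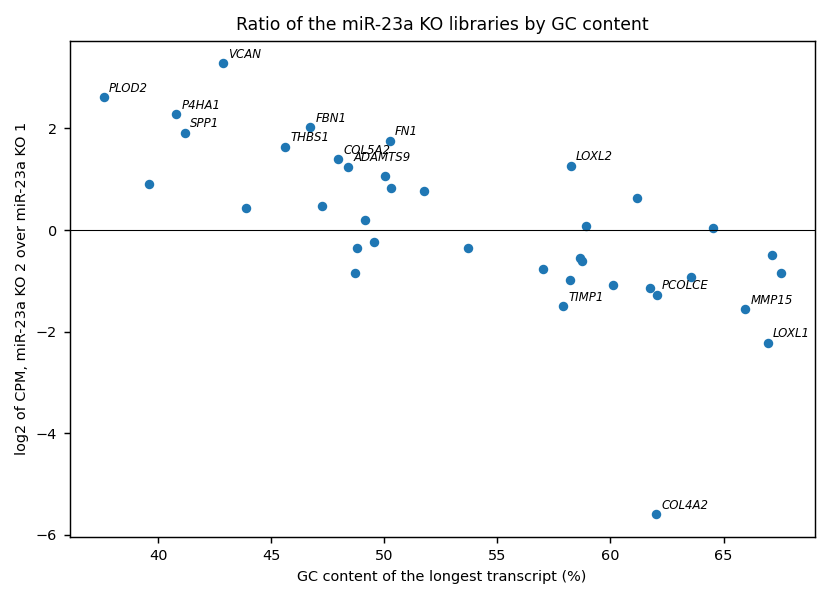
Log2 ratio of CPM, miR-23a KO replicate 2 over replicate 1 (vertical axis), against the GC content of the longest transcript in percent (horizontal axis) for the 38 tested genes. Points fall from *VCAN*, *PLOD2* and *P4HA1* at the upper left to *TIMP1*, *MMP15* and *LOXL1* at the lower right, and *COL4A2*, with 0 counts in replicate 2, lies lowest.

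The comparison of miR-27a KO with Scr asks how matrix genes stood in cells edited at miR-27a. Of the listed genes, 13 fell and 1 rose. The steepest falls were in *PCOLCE2*, *ADAMTS9* and *COL4A2*, which had no count in either miR-27a KO library, and in *COLGALT2*, *TIMP3* and *NID1*. They span an enhancer of procollagen trimming, a matrix protease, a basement membrane collagen, a collagen glycosyltransferase, a protease inhibitor and a basement membrane linker. *SPP1* rose. Fibronectin, the most abundant product per kilobase in Scr, had near equal means of 6773 CPM in Scr and 6418 CPM in miR-27a KO. Per kilobase it stood at 721 ± 3.22 CPM in miR-27a KO, below *SPP1* at 809 ± 10.9 CPM.

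Called genes are those past 1.5-fold whose p from edgeR's quasi-likelihood test, adjusted by Benjamini-Hochberg over all genes tested, was under 0.05. This test and adjustment stand behind each adjusted p below unless another is named. Of 38 listed genes tested, 1 was called higher, where 3.52% of 13821 genes were, and 13 were called lower, where 6.74% were. edgeR called 0 of the 38 at the study's adjusted p of 0.001, and 0.0289% of all genes. DESeq2 called 16 of them (42.1%) at an adjusted p under 0.05, and 11.7% of all genes. Under an unadjusted p of 0.05, 5 were higher and 21 lower, against 13.8% and 18.4% of all genes. The miR-27a KO libraries both exceeded Scr for 8 of the 38 and both lay below it for 23, against 32.4% and 31.9%. The median log2 fold change was -0.57 for the listed genes and 0.01 for all genes. For the listed genes it was also -0.57 with the 3 genes at 0 counts set to their bound. Without Scr replicate 1 it was -0.36, against 0.01 for all genes, and without Scr replicate 2 it was -0.83, against 0.02. The listed genes were chosen with earlier results known, so no test was made over the list.

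The number of listed genes called moved with single libraries. It was 19 (50.0%, against 16.4% of all genes) without Scr replicate 1, 25 (65.8%, against 26.2%) without Scr replicate 2, 8 (21.1%, against 2.96%) without miR-27a KO replicate 1 and 9 (23.7%, against 2.29%) without miR-27a KO replicate 2, the library left alone in its group being taken to vary like the other group. Without Scr replicate 1, *COL18A1*, *FBN1*, *ITIH5*, *PCOLCE*, *SDC4* and *VCAN* were added and *FBLN1* was lost. Without Scr replicate 2, *COL5A2*, *COLGALT1*, *HSPG2*, *ITIH5*, *LOX*, *LOXL2*, *P4HA2*, *PCOLCE*, *PLOD1*, *SDC3* and *TIMP2* were added and none was lost. *BGN*, *COL6A1*, *FBLN1*, *SDC1* and *THBS1* were lost without either miR-27a KO library, and *SPARC* without replicate 1. The number was 4 (10.5%, against 0.452% of all genes) in a fit of all 6 libraries, which brings in the spread of miR-23a KO. *NID1*, *COLGALT2*, *PCOLCE2* and *TIMP3* were the 4 called there and were called in each of the 7 alternatives and in each of the 4 fits without 1 library.

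**Figure D3:**
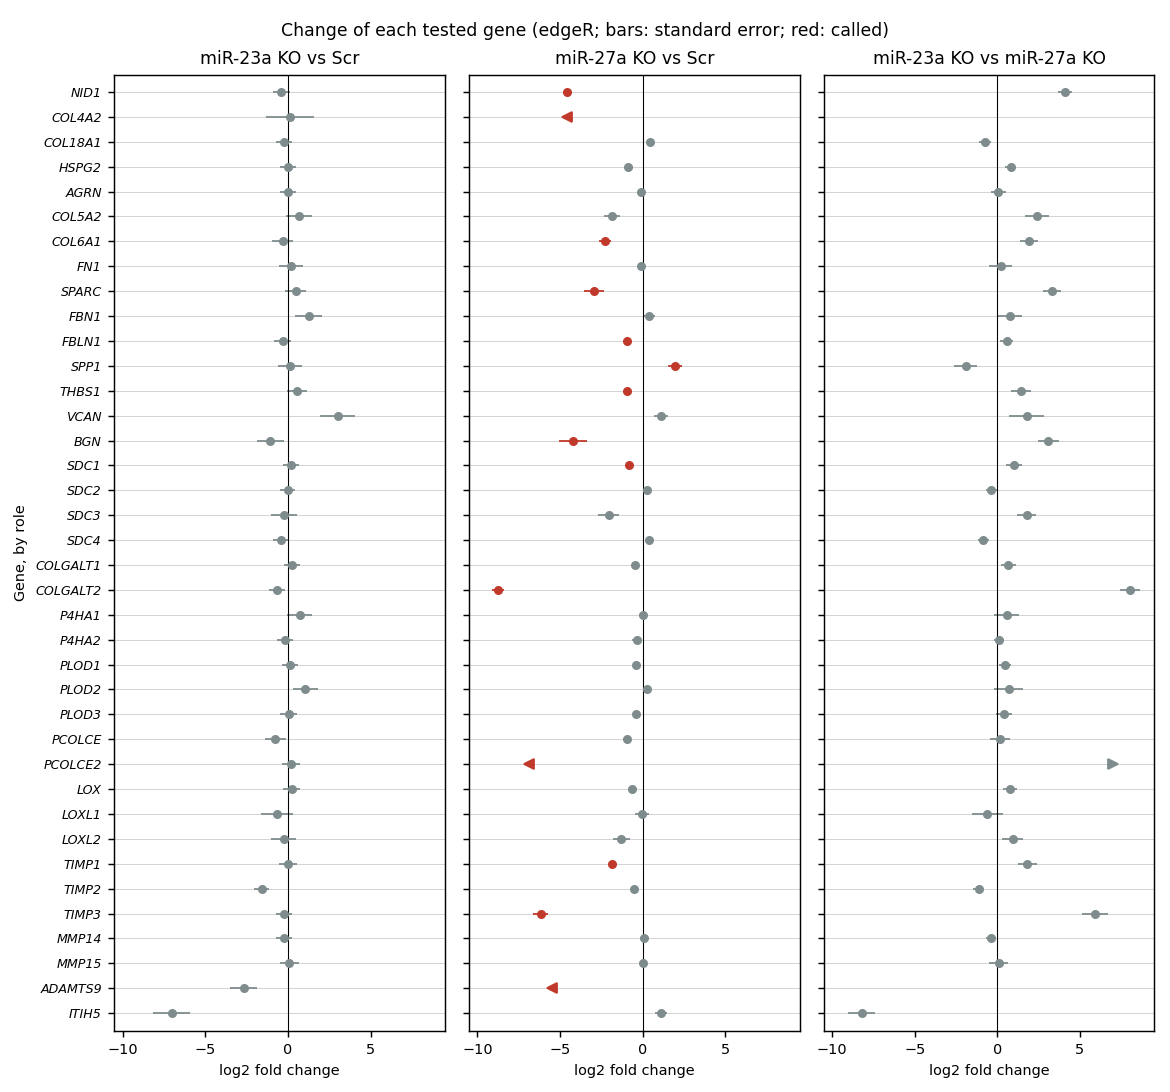
Log2 fold change (horizontal axis, edgeR) of each tested gene (vertical axis, by role) in the 3 comparisons, with bars for the standard error and red for called genes. Triangles are bounds for genes with 0 counts in 1 group, and red symbols appear only in the miR-27a KO panel, 13 left of 0 and *SPP1* right of it.

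In the basement membrane group, 2 of 5 tested genes fell and none rose. *NID1* (gene 4811) encodes nidogen-1, which links collagen IV to laminin. It had 2989 and 2009 counts in Scr, against 1198 and 2885 with miR-23a KO and 126 and 114 with miR-27a KO. Both miR-27a KO libraries lay far below the other 4, which overlapped among themselves. In CPM the means were 172 ± 51.0 in Scr and 7.25 ± 0.543 in miR-27a KO. *NID1* was 23.7-fold lower in miR-27a KO, with a log2 fold change of -4.57 (standard error, SE, 0.26, adjusted p = 0.00262).

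*COL4A2* had 31 and 31 counts in Scr, against 62 and 0 with miR-23a KO and 0 and 0 with miR-27a KO. Among the listed basement membrane collagen chains, it was the only one with over 1 CPM in both Scr libraries apart from *COL18A1*. Against a floor of 3 counts over the group, *COL4A2* was at least 23.5-fold lower in miR-27a KO than in Scr (adjusted p = 0.0159). The call was lost in the fit of all 6 libraries (adjusted p = 0.625, range over the 7 alternatives 0.0002 to 0.625). Intervals and floors cover counting error only.

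The other basement membrane genes did not pass. *HSPG2* (gene 3339), the proteoglycan perlecan, had means of 383 ± 165 CPM in Scr and 212 ± 10.3 in miR-27a KO, with a log2 fold change of -0.86 (SE 0.29, adjusted p = 0.112). It was called by DESeq2, with a replicate block, with the GC correction alone or with the block, and without Scr replicate 2. *AGRN*, the proteoglycan agrin, stood at -0.11 and *COL18A1* at 0.44 on the log2 scale, and *COL18A1* was called with the GC correction, alone or with the block, and without Scr replicate 1. *NID2*, *COL4A1* and *COL4A5* were too low to test.

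Of the other collagens only 2 could be tested, and 1 of them fell. *COL6A1* (gene 1291), a chain of the beaded-filament collagen VI, had 131 and 89 counts in Scr, against 102 and 75 with miR-23a KO and 30 and 22 with miR-27a KO. Its miR-27a KO counts lay under all others. It was 4.80-fold lower than in Scr, with a log2 fold change of -2.27 (SE 0.36, adjusted p = 0.0216). It was no longer called in the fit of all 6 libraries (adjusted p = 0.204, range over the alternatives 0.000152 to 0.204), without miR-27a KO replicate 1 (0.0539) and without replicate 2 (0.122).

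*COL5A2* (gene 1290), a chain of the fibril-regulating collagen V, had 28 and 20 counts in Scr, against 17 and 66 with miR-23a KO and 8 and 7 with miR-27a KO. The miR-27a KO counts were the lowest of the 6. Its log2 fold change of -1.85 (SE 0.47) did not pass, with an adjusted p of 0.0588. Without Scr replicate 2 it was called, at -2.08 (adjusted p = 0.0198).

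Among the matrix glycoproteins, 3 of 6 tested genes fell and 1 rose. *SPARC* (gene 6678), a collagen-binding protein that acts as a chaperone of matrix assembly, had 227 and 87 counts in Scr, against 157 and 307 with miR-23a KO and 16 and 31 with miR-27a KO. The miR-27a KO libraries did not overlap with the others. It was 7.62-fold lower than in Scr, with a log2 fold change of -2.93 (SE 0.61, adjusted p = 0.0379). The size was -2.04 without Scr replicate 1 and -3.46 without miR-27a KO replicate 2. The call was lost without miR-27a KO replicate 1 (adjusted p = 0.0721), without a filter on low counts (0.0699) and in the fit of all 6 libraries (0.178), where the alternatives ranged from 1.69e-05 to 0.178.

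*FBLN1*, a calcium-binding glycoprotein of basement membranes and elastic fibres, had 8088 and 5291 counts in Scr, against 5866 and 4899 with miR-23a KO and 3909 and 4078 with miR-27a KO. It was 1.91-fold lower in miR-27a KO, with a log2 fold change of -0.94 (SE 0.22, adjusted p = 0.0487). This was the weakest of the 14 calls. It was lost without Scr replicate 1, where the change was -0.56, under the fold threshold, and without miR-27a KO replicate 1 (adjusted p = 0.129) or replicate 2 (0.14). It was also lost without a filter on low counts, in the fit of all 6 libraries and with the GC correction, with adjusted p from 0.000101 to 0.665 over the alternatives.

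*THBS1* (gene 7057), thrombospondin-1, which can activate latent TGF-beta, had 636 and 540 counts in Scr, against 349 and 1539 with miR-23a KO and 340 and 346 with miR-27a KO. In CPM it stood at 20.6 and 20.8 in miR-27a KO, under all others, the lowest of which was 26.6 in miR-23a KO replicate 1. It was 1.95-fold lower than in Scr, with a log2 fold change of -0.96 (SE 0.14, adjusted p = 0.0185). It was no longer called without miR-27a KO replicate 1 (adjusted p = 0.113) or replicate 2 (0.128) and in the fit of all 6 libraries (0.859, range over the alternatives 0.000131 to 0.859).

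*SPP1*, a secreted phosphoprotein that binds integrins and CD44, was the only listed gene that rose. It had 6802 and 2753 counts in Scr, against 1850 and 9871 with miR-23a KO and 20911 and 21440 with miR-27a KO. The miR-27a KO libraries were near equal and above the other 4, among which the spread was wide. Its mean went from 330 ± 203 CPM in Scr to 1279 ± 17.2 CPM in miR-27a KO. *SPP1* was 3.87-fold higher, with a log2 fold change of 1.95 (SE 0.43, adjusted p = 0.0427). The rise was 2.79 without Scr replicate 1 and 1.44 without Scr replicate 2, and it was called in each of the 4 fits without 1 library. The call was lost without a filter on low counts (adjusted p = 0.0766), in the fit of all 6 libraries (0.547) and with the GC correction (0.0505), where the alternatives ranged from 0.00132 to 0.547.

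*FN1* had 116415 and 80603 counts in Scr, against 43733 and 209525 with miR-23a KO and 106239 and 106200 with miR-27a KO. The miR-27a KO values lay between those of Scr. Its log2 fold change was -0.08 (SE 0.20, adjusted p = 0.811), and it was 0.24 without Scr replicate 1 and -0.34 without Scr replicate 2. *FBN1*, fibrillin-1, stood at 0.41 (adjusted p = 0.461). *FBN2* and *TNC* were too low to test.

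Of the secreted proteoglycans, *BGN* fell and *VCAN* did not pass. *BGN* (gene 633), biglycan, a small leucine-rich proteoglycan that binds collagen, had 104 and 29 counts in Scr, against 21 and 47 with miR-23a KO and 4 and 4 with miR-27a KO. The Scr libraries themselves lay far apart, and both were above miR-27a KO. It was 18.5-fold lower, with a log2 fold change of -4.21 (SE 0.83, adjusted p = 0.0346). The size was -2.98 without Scr replicate 1 and -4.86 without Scr replicate 2. It was no longer called without miR-27a KO replicate 1 (adjusted p = 0.0626) or replicate 2 (0.0913), without a filter on low counts (0.0635) and in the fit of all 6 libraries (0.147), where the alternatives ranged from 7.28e-05 to 0.147.

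*VCAN* (gene 1462) encodes versican, a large hyaluronan-binding proteoglycan, and has no site for miR-27a-3p. It had 59 and 27 counts in Scr, against 53 and 745 with miR-23a KO and 101 and 114 with miR-27a KO. Both miR-27a KO counts were above Scr. The log2 fold change in miR-27a KO was 1.13 (SE 0.42, adjusted p = 0.14). Without Scr replicate 1 it was called.

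The syndecans, transmembrane proteoglycans that act as co-receptors, had 1 of 4 genes that fell and none that rose. *SDC1* (gene 6382) had 6392 and 5626 counts in Scr, against 8084 and 5376 with miR-23a KO and 3795 and 3820 with miR-27a KO. The miR-27a KO libraries were the lowest of the 6. It was 1.80-fold lower than in Scr, with a log2 fold change of -0.85 (SE 0.10, adjusted p = 0.013). The call was lost without miR-27a KO replicate 1 (adjusted p = 0.0772) or replicate 2 (0.0964) and in the fit of all 6 libraries (0.782, range over the alternatives 3.32e-08 to 0.782). With both GC corrections the change was -0.56, under the fold threshold.

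*SDC3* (gene 9672) had 70 and 25 counts in Scr, against 43 and 39 with miR-23a KO and 10 and 16 with miR-27a KO, with a log2 fold change of -2.05 (SE 0.64, adjusted p = 0.0956). It was called without Scr replicate 2, at -2.62, and stood at -1.10 (adjusted p = 0.174) without Scr replicate 1. *SDC2*, at 0.27 (adjusted p = 0.0957), and *SDC4*, at 0.37 (adjusted p = 0.251), had both miR-27a KO libraries above Scr but did not pass.

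Of the 7 collagen-modifying enzymes of the endoplasmic reticulum, *COLGALT2* fell and the others did not pass. *COLGALT2* (gene 23127) adds galactose to hydroxylysine in collagen chains. It had 1601 and 1145 counts in Scr, against 532 and 1330 with miR-23a KO and 4 and 3 with miR-27a KO. Its mean went from 94.4 ± 24.0 CPM in Scr to 0.212 ± 0.0436 CPM in miR-27a KO, so the transcript was close to lost there. It was 431-fold lower, with a log2 fold change of -8.75 (SE 0.34, adjusted p = 0.00163). It is also a gene with 2 sites for miR-27a-3p, printed above, and it fell, rather than rose, in cells edited at that miRNA. The part of the sites was not tested.

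Its paralog *COLGALT1* (gene 79709) was the more abundant in Scr, at 106 ± 22.5 CPM per kilobase against 18.2 ± 4.64 for *COLGALT2*, and did not pass in miR-27a KO, with a log2 fold change of -0.46 (adjusted p = 0.108). *PLOD3*, a lysyl hydroxylase that also glycosylates, had an adjusted p of 0.0298 but a log2 fold change of -0.43, under the fold threshold. *PLOD1*, with 15976 and 11103 counts in Scr, against 15049 and 14555 with miR-23a KO and 11707 and 11675 with miR-27a KO, had a log2 fold change of -0.40 (SE 0.19, adjusted p = 0.214), which was -0.08 without Scr replicate 1 and -0.65 without Scr replicate 2, where it was called. *PLOD2* stood at 0.27, and the prolyl hydroxylase subunits *P4HA1* and *P4HA2* at 0.04 and -0.35.

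Among the procollagen enhancers and cross-linking oxidases, 1 of 5 fell and all 5 had fitted values below 0. *PCOLCE2* (gene 26577), an enhancer of procollagen C-proteinase, had 161 and 155 counts in Scr, against 168 and 202 with miR-23a KO and 0 and 0 with miR-27a KO. Scr and miR-23a KO were alike, and miR-27a KO held no count. *PCOLCE2* was at least 120-fold lower in miR-27a KO than in Scr (adjusted p = 0.00546). Its paralog *PCOLCE* (gene 5118) had a log2 fold change of -0.96 (SE 0.24, adjusted p = 0.0581). The lysyl oxidases did not pass: *LOX* stood at -0.63 (adjusted p = 0.178), *LOXL2* at -1.28 (adjusted p = 0.152) and *LOXL1* at -0.07 (adjusted p = 0.927).

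Of 7 tested proteases, inhibitors and hyaluronan-binding proteins, 3 fell. *TIMP3* (gene 7078), the metalloproteinase inhibitor that stays bound to the matrix, had 412 and 565 counts in Scr, against 463 and 361 with miR-23a KO and 12 and 3 with miR-27a KO. Those of miR-27a KO were the lowest of the 6 by a wide margin. It was 72.7-fold lower than in Scr, with a log2 fold change of -6.18 (SE 0.45, adjusted p = 0.00477). The size was -7.46 without miR-27a KO replicate 1 and -5.50 without replicate 2.

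*TIMP1*, the soluble inhibitor and the most abundant of the TIMPs here per kilobase, had 3244 and 2695 counts in Scr, against 3880 and 1936 with miR-23a KO and 971 and 924 with miR-27a KO. The miR-27a KO libraries lay under all others. It was 3.57-fold lower than in Scr, with a log2 fold change of -1.84 (SE 0.13, adjusted p = 0.00448). It was called in each of the 4 fits without 1 library and lost in the fit of all 6 libraries (adjusted p = 0.307, range over the alternatives 2.52e-26 to 0.307). *TIMP2* (gene 7077) had an adjusted p of 0.0429 but a log2 fold change of -0.51, under the fold threshold.

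*ADAMTS9* (gene 56999), a protease that cleaves versican and aggrecan, had 62 and 58 counts in Scr, against 4 and 16 with miR-23a KO and 0 and 0 with miR-27a KO. It was at least 45.4-fold lower in miR-27a KO than in Scr (adjusted p = 0.0107). It was no longer called in the fit of all 6 libraries (adjusted p = 0.0652, range over the alternatives 2.91e-06 to 0.0652). The membrane metalloproteinases *MMP14* and *MMP15* stood at 0.10 and -0.01. *ITIH5* (gene 80760), which binds hyaluronan through its heavy chain, had 188 and 90 counts in Scr, against 0 and 2 with miR-23a KO and 331 and 345 with miR-27a KO. Its log2 fold change in miR-27a KO was 1.09 (SE 0.36, adjusted p = 0.107), and it was called by DESeq2, with a replicate block, with that and the GC correction, and without either Scr library.

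**Figure D4:**
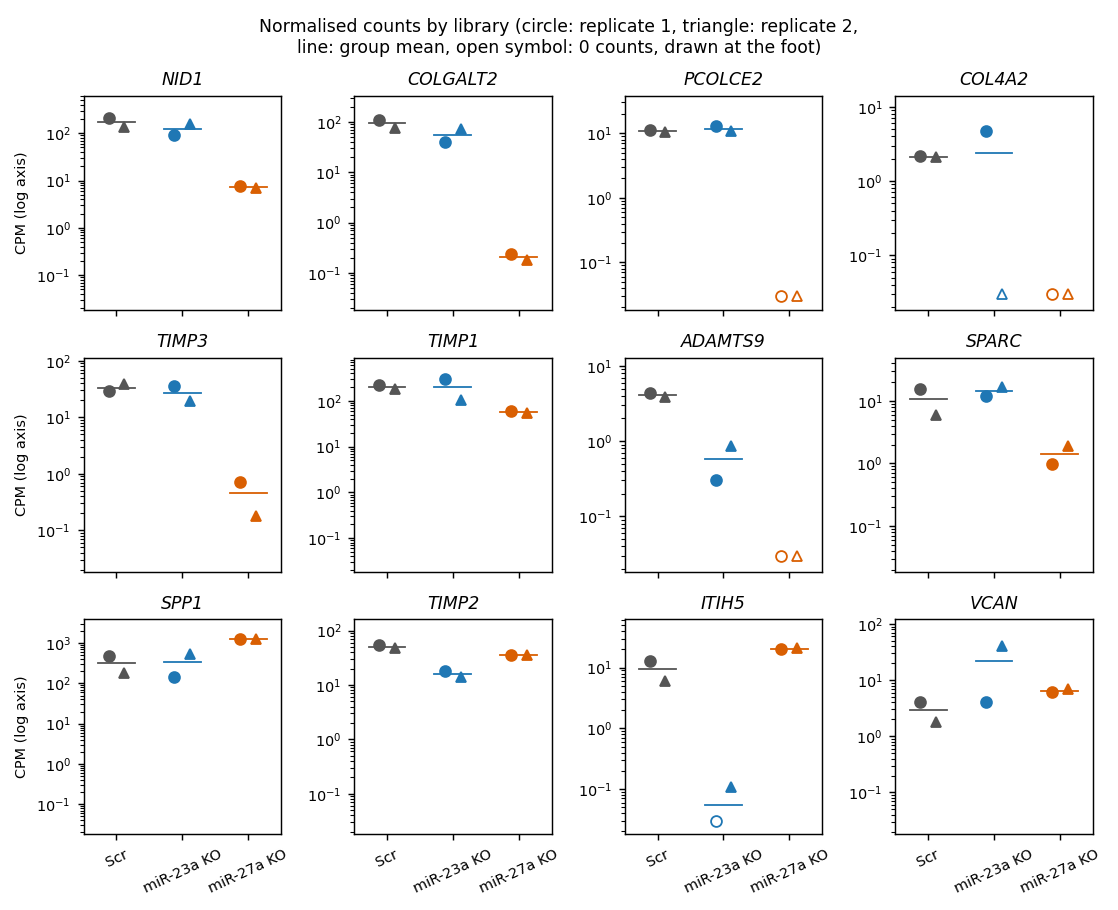
CPM on a log axis (vertical) by group (horizontal) for 12 genes, with a circle for replicate 1, a triangle for replicate 2 and a line for the group mean, and open symbols for 0 counts. *NID1*, *COLGALT2*, *PCOLCE2* and *TIMP3* are low in miR-27a KO only, *ADAMTS9* is low in both KO groups, and *ITIH5* is low in miR-23a KO only.

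The hepatocyte markers moved in miR-27a KO as well. Of the 9, 3 (33.3%) fell and 1 (11.1%) rose, against 6.74% and 3.52% of all genes. *ALB* fell by 2.59 (adjusted p = 0.00537), *AFP* fell by 4.12 (0.00262) and *FGB* fell by 2.05 (0.0212) on the log2 scale, while *TF* rose by 1.25 (0.0213). *PDGFRB*, of the fibroblast and stellate list, fell by 2.12 (adjusted p = 0.0166), while *ACTA2* did not pass at -0.27. The part of these shifts in the matrix results was not tested.

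Promoters were read for the listed genes that fell together in miR-27a KO. RefSeq (GRCh38.p14) windows of 300 bases, from 250 before to 50 after the start, were matched for 38 of the 47 genes and for 10 of the 13 that fell. *ADAMTS9*, *COLGALT2* and *COL6A1* had no entry. The motif GGGCGG, searched on both strands, was in 9 of the 10 (90.0%), in 31 of the 38 (81.6%), in 68.8% of 10878 tested genes and in 44.6% of all 27305 promoters. TATAAA, on both strands, was in 0 of the 10, in 5.26% of the listed genes, in 5.56% of tested genes and in 12% of all promoters. TGANTCA was in 0 of the 38, in 4.57% of tested genes and in 7.76% of all. The median GC content was 70.8% for the genes that fell, 70.2% for the listed genes and 65.0% for tested genes. Of the 6 genes with the steepest falls, 4 have an entry, and 3 of these are printed with GGGCGG, or its reverse complement CCGCCC, in capitals. They are *PCOLCE2* (minus strand, chr3:142889034-142889333, 5 matches), *TIMP3* (plus strand, chr22:32801455-32801754, 5 matches) and *COL4A2* (plus strand, chr13:110307034-110307333, 1 match).
PCOLCE2 promoter: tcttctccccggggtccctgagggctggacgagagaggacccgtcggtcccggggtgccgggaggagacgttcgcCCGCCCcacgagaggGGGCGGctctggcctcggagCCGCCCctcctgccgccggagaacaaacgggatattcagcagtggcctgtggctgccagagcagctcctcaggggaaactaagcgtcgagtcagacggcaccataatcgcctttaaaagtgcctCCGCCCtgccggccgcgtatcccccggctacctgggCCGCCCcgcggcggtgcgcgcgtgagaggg
TIMP3 promoter: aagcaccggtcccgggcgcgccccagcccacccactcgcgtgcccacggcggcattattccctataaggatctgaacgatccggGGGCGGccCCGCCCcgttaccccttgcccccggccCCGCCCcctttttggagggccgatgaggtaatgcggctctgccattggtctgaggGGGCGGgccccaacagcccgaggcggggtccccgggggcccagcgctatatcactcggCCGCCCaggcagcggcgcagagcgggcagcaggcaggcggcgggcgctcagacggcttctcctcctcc
COL4A2 promoter: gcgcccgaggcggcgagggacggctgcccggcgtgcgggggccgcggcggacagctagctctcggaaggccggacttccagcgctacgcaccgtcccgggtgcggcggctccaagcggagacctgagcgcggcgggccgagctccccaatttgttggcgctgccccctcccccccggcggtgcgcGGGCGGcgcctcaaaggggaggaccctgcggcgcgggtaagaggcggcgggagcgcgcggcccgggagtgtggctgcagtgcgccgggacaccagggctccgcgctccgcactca

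The *COL4A2* window overlaps that of *COL4A1*, which is read from the other strand, so both chains share this stretch, although only *COL4A2* had more than 1 count in any library. A match is a description of letters in this window and shows no binding.

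The comparison of miR-23a KO with Scr asks the same for cells edited at miR-23a, with the Scr libraries in common with the comparison above. No listed gene was called here. The 3 with the clearest separation were all lower in both miR-23a KO libraries: *ITIH5*, *ADAMTS9* and *TIMP2*, a hyaluronan-binding protein, a protease and a protease inhibitor. Among basement membrane genes, syndecans and collagen-modifying enzymes, the groups overlapped for every gene tested except *COLGALT2*.

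edgeR called 0 of 38 listed genes higher and 0 lower, as it called 0% of 13787 genes in either direction, and 0% at an adjusted p under 0.001. Under an unadjusted p of 0.05, 1 listed gene was higher (*VCAN*) and 3 were lower (*ITIH5*, *ADAMTS9* and *TIMP2*), against 0.856% and 1.55% of all genes. DESeq2 called 1 (2.63%), *ITIH5*, and 0.457% of all genes. The miR-23a KO libraries both exceeded Scr for 0 of the 38 and both lay below it for 5, against 8.88% and 14.9% of all genes. The median log2 fold change was 0.00 for the listed genes and 0.16 for all genes. For the listed genes it ran from -0.34 without miR-23a KO replicate 1 to 0.20 without Scr replicate 1. For all genes it turned to -0.05 without miR-23a KO replicate 1 and to -0.08 without miR-23a KO replicate 2. Without miR-23a KO replicate 1, edgeR called 7 of the 38 (18.4%), against 3.95% of all genes, and without miR-23a KO replicate 2 it called 8 (21.1%), against 18.5%. Of these *ITIH5*, *PLOD2* and *TIMP2* were in both. *PLOD2* had 27.5 CPM in replicate 1 and 168 in replicate 2, on either side of the Scr values of 47.6 and 54.1. edgeR called 0 without Scr replicate 1 and 1 without Scr replicate 2.

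*ITIH5* was nearly lost in miR-23a KO, with the 0 and 2 counts given above against 188 and 90 in Scr. The ratio of Scr to miR-23a KO was 151, with a 95% exact counting interval of 41.4 to 1250. The difference did not pass (adjusted p = 0.33) with edgeR. It passed with DESeq2 (adjusted p = 1.54e-05), without a filter on low counts (0.0378), with a replicate block (4.46e-07) and with that and the GC correction (0.0352), and the range over the alternatives was 4.46e-07 to 0.238. Over the 4 fits without 1 library the log2 fold change of *ITIH5* ran from -10.08 to -6.33. *ITIH5* has a site for each miRNA, printed above, and stood lower than Scr in miR-23a KO and higher than Scr in miR-27a KO. The part of its sites was not tested.

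*ADAMTS9*, with 4 and 16 counts in miR-23a KO against 62 and 58 in Scr, had a log2 fold change of -2.68 (SE 0.83, adjusted p = 1.0). It was called only without miR-23a KO replicate 2, at -3.72 (adjusted p = 0.0139). *TIMP2*, a metalloproteinase inhibitor that also takes part in the activation of MMP2, had 767 and 696 counts in Scr, against 235 and 261 with miR-23a KO and 590 and 578 with miR-27a KO. The miR-23a KO libraries were the lowest of the 6 and close to each other, with means of 50.2 ± 4.46 CPM in Scr and 16.0 ± 2.71 in miR-23a KO. Its log2 fold change was -1.59 (SE 0.47, unadjusted p = 0.00889, adjusted p = 1.0, edgeR). It was called without either miR-23a KO library, at -1.79 (adjusted p = 0.0294) without replicate 1 and -1.49 (0.00563) without replicate 2.

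*VCAN*, with 2 sites for miR-23a-3p, had 53 and 745 counts in miR-23a KO, so a single library carried its log2 fold change of 3.02 (SE 1.05, adjusted p = 1.0). In replicate 1 its level of 4.03 CPM lay at that of Scr replicate 1, 4.10 CPM. *COLGALT2* had both miR-23a KO libraries below Scr, at 56.1 ± 22.0 CPM against 94.4 ± 24.0, with a log2 fold change of -0.67 (SE 0.50, adjusted p = 1.0). *PCOLCE*, also lower in both, had -0.76 (SE 0.63, adjusted p = 1.0).

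None of the 5 genes highest per kilobase in Scr passed in miR-23a KO with all 4 libraries. *FN1* had a mean of 7307 ± 5626 CPM there, and its log2 fold change of 0.21 (SE 0.73) was -1.02 without replicate 2, where it was called (adjusted p = 0.0376), and 0.78 without replicate 1 (0.134). *SPP1* stood at 0.14 (SE 0.73), and at -1.22 without replicate 2. *TIMP1* stood at 0.01 (SE 0.55), *PLOD1* at 0.11 (SE 0.49) and *FBLN1* at -0.32 (SE 0.49), each with an adjusted p of 1.0. With the GC correction *FN1* stood at -0.16, *SPP1* at -0.23 and *TIMP1* at -0.08, on the other side of 0.

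The KO groups were also compared with each other, which leaves out the Scr libraries and tests whether the groups themselves differ. *PCOLCE2*, *COLGALT2*, *TIMP3*, *NID1*, *SPARC* and *BGN* were higher in both miR-23a KO libraries than in both miR-27a KO libraries, and *ITIH5* and *SPP1* were lower, but none was called by edgeR. Fitted values were above 0, or higher in miR-23a KO, for 28 of 36 listed genes (77.8%) and for 57.6% of all genes.

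edgeR called 0 of 36 listed genes higher and 0 lower, as 0% of 13841 genes, and 0% at an adjusted p under 0.001. Under an unadjusted p of 0.05, 10 were higher and 3 lower, against 4.66% and 4.07% of all genes. The miR-23a KO libraries both exceeded those of miR-27a KO for 17 of the 36 and both lay below for 7, against 18.7% and 20.7% of all genes. The median log2 difference was 0.67 for the listed genes and 0.11 for all genes. DESeq2 called 6 (16.7%), against 3.45% of all genes: *COLGALT2*, *ITIH5*, *NID1*, *PCOLCE2*, *SPARC* and *TIMP3*. Without miR-23a KO replicate 1 edgeR called 26 of the listed genes tested (68.4%), against 34.0% of all genes, and without replicate 2 it called 27 (73.0%), against 51.4%. Without miR-27a KO replicate 1 it called 4 (10.3%), against 0.526%, and without replicate 2 it called 3 (7.69%), against 0.499%.

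*PCOLCE2* exceeded miR-27a KO by at least 129-fold in miR-23a KO (adjusted p = 0.096), from the counts of 168 and 202 against 0 and 0. *COLGALT2* had a log2 difference of 8.0 (SE 0.60, adjusted p = 0.0802), 257-fold. For *TIMP3* it was 5.89 (SE 0.80, adjusted p = 0.108) and for *NID1* 4.09 (SE 0.45, adjusted p = 0.096). With DESeq2 the adjusted p was 3.32e-08 for *PCOLCE2*, 9.34e-22 for *COLGALT2*, 5.31e-13 for *TIMP3* and 3.26e-12 for *NID1*. Over the 7 alternatives the highest adjusted p was 0.0987 for *PCOLCE2* and *NID1*, 0.0802 for *COLGALT2* and 0.106 for *TIMP3*. *PCOLCE2*, *COLGALT2* and *NID1* were called in 5 of the 7 and *TIMP3* in 4. Besides DESeq2, each was called in the fit of all 6 libraries and with the replicate block, alone or with the GC correction. In the 4 fits without 1 library *COLGALT2* ranged from 7.53 to 8.35 and *TIMP3* from 5.21 to 7.18. *PCOLCE2* and *COLGALT2* were called in all 4, *TIMP3* in 3 and *NID1* in 2.

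*SPARC* differed by 3.33 (SE 0.54, adjusted p = 0.137) and *BGN* by 3.06 (SE 0.64, adjusted p = 0.199). *SPARC* was called with DESeq2 (adjusted p = 2.83e-05), the block (0.00147), the GC correction (0.0337) and both (1.56e-06), and *BGN* in no alternative. *COL5A2*, at 2.41 (adjusted p = 0.418), *COL6A1*, at 1.90 (adjusted p = 0.387), *TIMP1*, at 1.81 (adjusted p = 0.454), and *SDC3*, at 1.76 (adjusted p = 0.471), also had both miR-23a KO libraries above miR-27a KO. Without miR-23a KO replicate 1 these stood at 2.94, 1.35, 0.86 and 1.40, and without replicate 2 at 1.5, 2.30, 2.37 and 2.05. All were then called except *SDC3* without replicate 1 and *COL5A2* without replicate 2. *SPARC* ranged from 2.92 to 3.86 over the 4 fits without 1 library and *BGN* from 2.69 to 3.34, and each was called without either miR-23a KO library but not without either miR-27a KO library. *COL4A2* and *ADAMTS9* were not tested here after the filter on low counts. By their counts, *COL4A2* exceeded miR-27a KO by at least 21.6-fold in miR-23a KO and *ADAMTS9* by at least 6.96-fold, and *COL4A2* had its 62 miR-23a KO counts in a single library. *ITIH5* went the other way, with a ratio of miR-27a KO to miR-23a KO of 324 (95% exact counting interval 89.3 to 2680, adjusted p = 0.0931). The fit with block and GC correction also called *TIMP1* (adjusted p = 0.00473) and *SPP1* (0.000419). Without them *SPP1* stood at -1.92 (SE 0.71, adjusted p = 0.549). It was called at -1.28 without miR-23a KO replicate 1 and at -3.18 without replicate 2.

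Sites for the miRNAs were counted in the listed genes and in all genes. A miR-23a-3p site was in 5 of the 38 tested genes (13.2%), against 19.7% of 12286 genes with an annotated 3' untranslated region, and a miR-27a-3p site was in 8 of the 38 (21.1%), against 17.1%. For *FBN1* the longest region belongs to a transcript that ends near the 5' end of the gene. The site there, at chr15:48642967-48642973, lies far from the 3' end of the gene at chr15:48408306. The 5 genes with a miR-23a-3p site were *VCAN*, *COL5A2*, *COL6A1*, *FBN1* and *ITIH5*. In miR-23a KO they stood at 3.02, 0.66, -0.31, 1.27 and -7.03 on the log2 scale, in that order. Their median was 0.66, against -0.005 for listed genes without such a site. For all genes those medians were 0.24 and 0.15. Replicate 2 carried the difference: without it the medians were -0.21 and -0.29 for the listed genes and -0.35 and 0.02 for all genes, and without replicate 1 they were 1.15 and -0.35 for the listed genes and 0.45 and -0.16 for all genes. In miR-27a KO the 8 genes with a miR-27a-3p site had a median of -0.05, against -0.90 for listed genes without one, and for all genes the medians were 0.07 and -0.01. For the listed genes they were 0.21 and -0.57 without Scr replicate 1 and -0.22 and -1.07 without Scr replicate 2. Sites for the other miRNA gave a gap in miR-27a KO as well. The 5 listed genes with a miR-23a-3p site had a median of 0.41 there, against -0.63 without one. For all genes those medians were 0.13 and -0.02. The 0.41 is the value of *FBN1* alone, whose site is the one near the 5' end of its gene. *VCAN* (1.13) and *ITIH5* (1.09) lay above it, and *COL5A2* (-1.85) and *COL6A1* (-2.27) lay below 0. In miR-23a KO, listed genes with a miR-27a-3p site had a median of -0.01, against 0.01 without one. *COLGALT2* and *COL6A1* were the called genes with a site for either miRNA, 2 for miR-27a-3p in the first and 1 for miR-23a-3p in the second. *NID1*, *PCOLCE2*, *TIMP3*, *COL4A2*, *ADAMTS9*, *SPARC*, *FBLN1*, *BGN*, *TIMP1*, *THBS1*, *SDC1* and *SPP1* have none for either.

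Other genes of the pathway were counted from a second list of 71, of which 63 have values. In miR-27a KO, 3 of 44 tested (6.82%) were called higher and 11 (25%) lower, against 3.52% and 6.74% of all genes, with a median log2 fold change of -0.17. *SERPINH1*, the collagen chaperone HSP47, had 5288 and 2799 counts in Scr and 1578 and 1627 in miR-27a KO and fell by 1.53 on the log2 scale (SE 0.31, adjusted p = 0.0364). *MATN3*, a matrilin of cartilage matrix, had 965 and 456 counts in Scr and 75 and 70 in miR-27a KO and fell by 3.48 (SE 0.42, adjusted p = 0.0129). *EMILIN1*, a glycoprotein of elastic fibres, fell by 1.67 (adjusted p = 0.0145). *COL2A1*, *FBLN5*, *LTBP2*, *TNXB*, *GPC1*, *MMP11*, *TIMP4* and *ITIH1* also fell.

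The 3 other pathway genes that rose in miR-27a KO were *ADAMTS2*, the N-proteinase that trims procollagen, by 1.02 (SE 0.14, adjusted p = 0.0155), *COL27A1*, a fibrillar collagen, by 0.71 (adjusted p = 0.0116) and *RECK*, a membrane-anchored protease inhibitor, by 2.5 (adjusted p = 0.0495). *ADAMTS2* had 1167 and 931 counts in Scr, against 587 and 458 with miR-23a KO and 2416 and 2441 with miR-27a KO. *P4HB*, the beta subunit of prolyl hydroxylase, did not pass, at -0.11 (adjusted p = 0.458). In miR-23a KO, edgeR called 0 of 43 tested genes. Under an unadjusted p of 0.05, 2 were lower and 0 higher, against 1.55% and 0.856% of all genes, and the median was 0.015, against 0.16. In the comparison of the KO groups it called 0 of 44, with 9 higher and 6 lower under that p, against 4.66% and 4.07% of all genes, and a median of 0.21, against 0.11.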

How the data were processed

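RNA-seq of 6 HepG2 libraries was analysed, 2 from each group, grouped by their titles (Scr, then the KO of miR-23a or of miR-27a). The deposited values, in columns named FPKM, were read as estimated counts (expected counts) per gene, scaled neither for depth nor for length, a reading from the values that no label states. The labels name a TruSeq RNA kit and the paper a stranded one. The labels name HISAT, StringTie, Cufflinks and GATK without roles or versions, and give no genome build. No value column was unused (0). Counts were rounded. Each comparison was fitted on its own 4 libraries with edgeR 4.0.16 in R 4.3.3 (filterByExpr, TMM, glmQLFit and glmQLFTest), with Benjamini-Hochberg adjustment of p over every gene tested. Calls needed over 1.5-fold and an adjusted p under 0.05, with the study's 0.001 beside it. The coefficient of variation between replicates was 0.446 for miR-23a KO against Scr, 0.159 for miR-27a KO against Scr and 0.415 between the KO groups.

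Genes given in full were the listed genes called in any comparison, up to 12 a comparison with at least 1 CPM in both libraries of a group, no overlap and a fitted change over 2-fold, and the 5 highest per kilobase in Scr. Others were named within their role group. *PLOD2*, *MMP15*, *HSPG2*, *PCOLCE* and the single other pathway genes and markers named were chosen after their values were seen, as were the 3 genes whose sites and the 3 whose promoters are printed, and *COL9A3* and *COL27A1*. The members and lists were chosen with earlier results of these data known. Folds against a group at 0 counts used a floor of 3 counts over the group, and intervals are exact at 95%.

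Alternatives were DESeq2 1.42.0, its median-ratio factors in edgeR, testing without the count filter, fitting all 6 libraries at once, a replicate block, a loess correction for GC content and length (span 0.5, degree 2, prior count 2), this correction plus the block, and each library left out in turn. A fit without 1 library leaves a group with a single library, which is taken to vary like the other group. Its p and calls therefore do not measure the spread of that group. Transcript lengths, GC content and 3' untranslated regions came from GENCODE 29 (GRCh38), which matched 17620 of 20026 genes (88%), and miRNAs and promoters from RefSeq (GRCh38.p14). The workflow was tested on simulated data. *TWIST1*, the miRNA genes and their host transcript are not analysed here.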

Additional observations from a re-analysis of the deposited data

Results flagged for a closer look

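*ITIH5* lay on opposite sides of Scr in the KO groups. Both miR-23a KO libraries, with 0 and 2 counts, lay below both Scr libraries, with 188 and 90, and both miR-27a KO libraries, with 331 and 345, lay above them. Against Scr neither passed, with an adjusted p of 0.33 for the first and 0.107 for the second. Tested directly between the KO groups, the fitted log2 difference was -8.20, and edgeR's quasi-likelihood p, adjusted by Benjamini-Hochberg, was 0.0931 and did not pass. Over the 7 alternatives the adjusted p ran from 1.67e-11 to 0.0865 and it passed in 5. Over the 4 fits without 1 library the log2 difference ran from -11.30 to -7.48. Those fits leave a single library in 1 group, so their p cannot measure the spread of that group. The cause was not tested.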

How the results depend on the processing

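For miR-23a KO against Scr, where edgeR called 0 genes, the count of genes called was 63 with DESeq2, 10 without a filter on low counts, 3 in the fit of all 6 libraries, 69 with a replicate block, 3 with the GC correction, 23 with both and 4 to 2621 without 1 library. Of the listed genes, 1 (*ITIH5*) was called with DESeq2, without the filter, with the block and with block and GC correction, and 0 to 8 without 1 library. For miR-27a KO, 1418 genes became 876 without the filter, 64 in the fit of all 6 libraries, where the wide spread of miR-23a KO enters, and 328 to 3730 without 1 library. The 14 listed genes became 4 in that fit and 8 to 25 without 1 library. Between the KO groups, 0 genes became 477 with DESeq2, 218 in the fit of all 6 libraries, 401 with the block, 290 with the GC correction, 989 with both and 72 to 7300 without 1 library. There 0 listed genes became 6, 5, 6, 5 and 10 in the same order, and 3 to 27 without 1 library.

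For single genes in miR-23a KO, *FN1* turned to -0.051 with the replicate block, -0.163 with the GC correction and -0.171 with both, and ranged from -1.02 to 0.78 without 1 library. *SPP1* turned to -0.051, -0.234 and -0.297 in the same order, with -1.22 to 0.88 without 1 library. *TIMP1* turned to -0.002 without the filter, -0.030 in the fit of all 6 libraries, -0.143, -0.082 and -0.096, with -0.92 to 0.54. Without 1 library *PLOD1* ranged from -0.20 to 0.39, *FBLN1* from -0.76 to 0.016 and, in miR-27a KO, *FN1* from -0.34 to 0.24. Between the KO groups *FN1* turned to -0.062 with the block and -0.031 with block and GC correction. It ranged from -0.94 without miR-23a KO replicate 2 to 0.81 without miR-23a KO replicate 1. None of these passed the test as reported. Over the 7 alternatives, the genes given in full kept direction and side of the threshold in 41 of 56 values for miR-23a KO (4 newly called, 11 turned), 108 of 126 for miR-27a KO (18 no longer called) and 73 of 105 between the KO groups (30 newly called, 2 turned). The cause was not tested. The labels tie replicates of different groups by number only. Differences between replicates correlated across genes at 0.193 for Scr and miR-23a KO, and at 0.00 and 0.019 for the other pairs. What lies behind the 0.193 was not tested. Depth limits genes of a few counts, such as *COL4A1*.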
